A study of Homo sapiens with 6 samples.

Results

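The genes described here are the IL6 family of cytokines and the receptors built around gp130, with SOCS3 as the feedback gene. They are 10 of the 33900 genes in the deposited table, found by gene name. The ligands are IL6, IL11, LIF, CLCF1 and CTF1, the receptor subunits are IL6ST, IL6R, LIFR and OSMR, and each name matched 1 row. The samples were LX-2 cells, an established human hepatic stellate cell line labelled wild type (WT) and maintained with fetal bovine serum. Stellate cells are the collagen-producing cells of the liver. In 3 samples the cells received rhSema3C, recombinant human Sema3C protein, at 300 ng/ml for 48 h, and 3 control samples received PBS for 48 h. The labels call the samples biological replicates without saying how the cultures were separated, so p-values measure the spread between these samples of 1 cell line. The comparison asks which signals of this family LX-2 cells make and can receive after exposure to Sema3C.

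Cytokines of the IL6 family act through gp130, the shared signalling chain encoded by IL6ST. IL6 and IL11 first bind their own receptor chains, IL6R and IL11RA, and then bring gp130 chains together. LIF and CTF1 signal through gp130 paired with LIFR, and CLCF1 needs the chain CNTFR beside these 2. Human oncostatin M signals through gp130 paired with OSMR or with LIFR. The assembled receptors activate JAK kinases and the transcription factor STAT3, and STAT3 induces SOCS3, which shuts the receptor complex down. In the liver, IL6 is known as the main inducer of the acute-phase response, and IL11 is known as a cytokine of activated fibroblasts.

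Promoter stretches of IL6 and IL11 are shown because these 2 ligands moved furthest, and in opposite directions. They come from RefSeq on GRCh38.p14 and run from 120 to 54 bases before the start that RefSeq gives, 5′ to 3′ on the gene's strand. For IL6 the deposited table places the first base of the gene further upstream, at 22725884, so this stretch lies inside the gene's span in that table. The IL6 stretch is chr7:22727080-22727146 on the plus strand, and the IL11 stretch is chr19:55370517-55370583 on the minus strand. Capitals mark matches to the motifs searched.
IL6: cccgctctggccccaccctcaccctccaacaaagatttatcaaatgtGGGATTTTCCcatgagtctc
IL11: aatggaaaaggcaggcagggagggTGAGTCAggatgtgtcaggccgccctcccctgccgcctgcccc

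The capitals in the IL6 stretch match GGGNNTTTCC, the letters of an NF-κB type motif, and those in the IL11 stretch match TGANTCA, the letters of an AP-1 type motif. Another motif, TTCNNNGAA, has the letters bound by STAT proteins. All 3 were searched on both strands in windows of 300 bases, 250 of them before the start. The NF-κB type motif lay in 1.91% of the 35116 promoter windows of the RefSeq table, the AP-1 type motif in 7.71% and the STAT type motif in 7.66%. The table held windows for 7 of the 10 genes, and LIF, CLCF1 and CTF1 had no entry. Among these windows only that of IL6 held the NF-κB type letters. No other spelling of that motif was searched. The AP-1 type letters lay in the windows of IL11, OSMR and IL6R, and the STAT type letters in 2 of the windows of LIFR. These matches describe letters and not binding, and none of the marked motifs overlap each other.

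Total counts on genes ranged from 68267808 to 89245585 per sample. The groups differed in their share of mitochondrial counts, which was 4.75 to 5.42% with PBS and 3.73 to 3.93% with rhSema3C. Of 10 markers of stellate cells and myofibroblasts, 7 reached 0.5 in mean FPKM, the authors' measure of fragments per transcript length and sequencing depth. COL1A1 and VIM were among them, while COL1A2, DES and LRAT were at or near 0. The summed FPKM of this list was 1224 to 1290 with PBS and 931.8 to 991.5 with rhSema3C. Most of it came from VIM, with means of 1035 and 834.5 FPKM. The macrophage list summed to 95.3 to 104 FPKM with PBS and 67.5 to 73.2 FPKM with rhSema3C, nearly all from CD68, and the leukocyte marker PTPRC was at 0.00414 and 0.00475 FPKM. The hepatocyte list summed to at most 4.14 FPKM, with ALB and APOA1 at or near 0. The endothelial list reached 1.67 FPKM and the biliary list 3.88 FPKM at most. Any part of these shifts in the members' changes was not tested.

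rhSema3C shifted the ligands apart from each other. IL6 rose 3.31-fold, IL11 fell to 0.473 of its PBS level, CLCF1 fell to 0.674 and LIF to 0.873. Of the receptor subunits, LIFR rose 1.34-fold and OSMR 1.24-fold, whereas IL6ST and IL6R did not pass the test. SOCS3 was at 0.855 of its PBS level. The test was edgeR's quasi-likelihood test on counts, and its p-values were adjusted after Benjamini and Hochberg over the 14178 genes that reached a mean FPKM of 0.5. That left 9 members in the test, since IL6R lay below this level.

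Of those 9 members, 3 rose and 4 fell past the threshold, an adjusted p under 0.05. With library-size scaling 4 rose, IL6ST being added, and 2 fell, LIF and SOCS3 no longer passing, and TPM gave the same counts. Over all genes tested, 62.3% passed in either direction, 31.7% as higher and 30.6% as lower, so the share of members that passed is to be read against that background. A fold above 2 in addition was reached by IL6 upwards and by IL11 downwards, where 3.31% and 2.06% of all genes did so. In 7 of the 9 members the groups did not overlap, against 67.8% of all genes tested. The median log2 fold change was -0.21 for the 5 ligands and 0.31 for the 3 tested receptor subunits, beside 0.02 for all genes. The ligand median is the value of CTF1, which did not pass. CTF1 was also the middle ligand with library-size scaling (-0.10) and with TPM (0.02). In bulk RNA, fewer cells making a transcript and less of it per cell cannot be told apart.

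**Figure D1:**
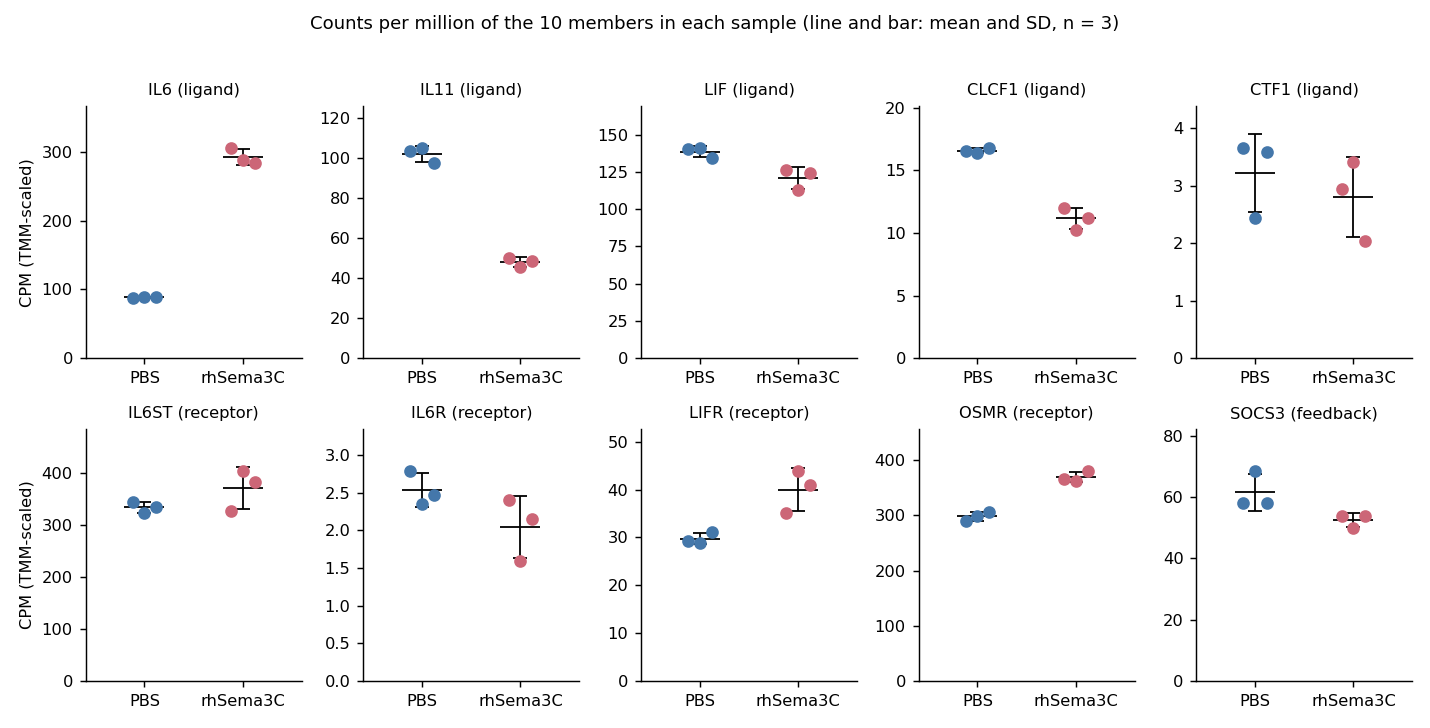
Level of each member in CPM, its counts scaled to a common library size with the TMM factors of edgeR, in the 3 PBS samples and the 3 rhSema3C samples. Points are samples, lines are group means and bars are 1 SD. The rhSema3C samples of IL6 lie between 284 and 306 CPM, far above the PBS samples at 87.8 to 88.6, while those of IL11 lie between 45.6 and 50.3 CPM, below the PBS samples at 97.4 to 105.

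IL6 (ENSG00000136244, chromosome 7, 22725884 to 22732002, plus strand, on GRCh38 like all gene coordinates here) is the founding ligand of the family. Its level was 87.8, 88.6 and 88.6 CPM in PBS replicates 1, 2 and 3, and 306, 288 and 284 CPM in the rhSema3C replicates. The PBS samples differed by less than 1 CPM and every rhSema3C sample was far above them. On the log2 scale edgeR gave a change of 1.73, with a standard error (SE) of 0.04, a 95% interval from 1.63 to 1.82 and an adjusted p of 4.1e-10. In FPKM, IL6 moved from rank 1102 to rank 218 among the genes tested. On the other strand IL6-AS1 covers 428 of the 2069 exonic bases of IL6 in GENCODE 29. IL6-AS1 itself had 65 to 110 counts with PBS and 47 to 78 with rhSema3C, beside at least 5855 counts for IL6 in every sample.

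IL11 (ENSG00000095752, chromosome 19, 55364382 to 55370463, minus strand) encodes interleukin-11. It stood at 104, 105 and 97.4 CPM in the PBS replicates and at 50.3, 45.6 and 48.8 CPM in the rhSema3C replicates. No rhSema3C sample came near the lowest PBS sample. In edgeR the log2 change was -1.08 (SE 0.05, 95% interval -1.20 to -0.96, adjusted p = 3.3e-08), and the interval includes a fold of 2. Under library-size scaling the change was -0.97, and IL11 then passed the adjusted p but not the fold of 2. No other gene in the table overlaps IL11.

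CLCF1 (ENSG00000175505, chromosome 11, 67364168 to 67374177, minus strand) encodes cardiotrophin-like cytokine factor 1. Its PBS samples had 16.6, 16.4 and 16.8 CPM, and its rhSema3C samples had 11.98, 10.28 and 11.24 CPM. The groups did not overlap, and the log2 change was -0.57 (SE 0.09, 95% interval -0.77 to -0.37, adjusted p = 0.00025). CLCF1 lies within RAD9A on the other strand, with no shared exonic base in GENCODE 29. It also shares 61 exonic bases with an unnamed gene on its own strand that had 2 to 94 counts.

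LIF (ENSG00000128342, chromosome 22, 30240453 to 30246759, minus strand) encodes leukemia inhibitory factor. The PBS samples had 141, 141 and 135 CPM and the rhSema3C samples 127, 113 and 124 CPM. The highest rhSema3C sample lay just below the lowest PBS sample. The difference was -0.20 on the log2 scale (SE 0.05, adjusted p = 0.0050), but it was -0.09 with library-size scaling (adjusted p = 0.14) and 0.03 with TPM, the FPKM values rescaled to the same sum in every sample (adjusted p = 0.62). The direction for LIF therefore depended on the scaling. On TMM-scaled counts the 95% interval of the fold ran from 0.810 to 0.942. LIF shares 175 exonic bases, 4.41% of its total, with a gene on the other strand that had 96 to 181 counts, and 92 bases with LIF-AS1, which had at most 2.

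CTF1 (ENSG00000150281, chromosome 16, 30896614 to 30903547, plus strand) encodes cardiotrophin 1 and had the fewest counts of the ligands. The samples had 3.65, 2.44 and 3.59 CPM with PBS and 2.94, 3.41 and 2.04 CPM with rhSema3C, from 171 to 314 counts. The groups overlapped throughout. The fold was 0.867 with a 95% interval from 0.608 to 1.24 (adjusted p = 0.46), which covers both a fall and a rise.

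The make-up of the ligand mRNA differed between the groups. The FPKM of the 5 ligands summed to 120.2 ± 1.55 with PBS and 200.9 ± 7.47 with rhSema3C (SD, n = 3 per group). IL6, IL11 and LIF made up near-equal parts with PBS. IL6 took 33.0, 33.2 and 34.2% of the sum in the PBS samples and 71.2, 72.1 and 70.4% in the rhSema3C samples. IL11 went from 29.8 ± 0.725% to 9.07 ± 0.261%, and LIF from 28.1 ± 0.292% to 15.8 ± 0.690%. CLCF1 went from 7.08 ± 0.194% to 3.06 ± 0.140%, and CTF1 made up at most 1.74% in any sample.

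**Figure D2:**
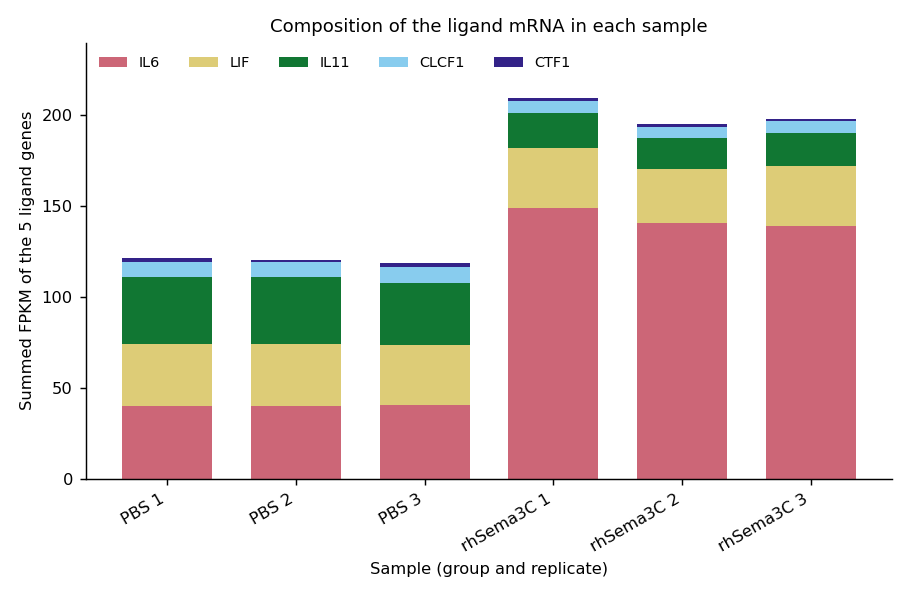
Stacked bars of the FPKM of the 5 ligand genes in each of the 6 samples, starting at 0. IL6 fills 33.0 to 34.2% of each PBS bar and 70.4 to 72.1% of each rhSema3C bar, while the part of IL11 shrinks from at least 29.03% to at most 9.34%.

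IL6ST (ENSG00000134352, chromosome 5, 55935095 to 55995022, minus strand) encodes gp130 itself and was abundant in both groups. The samples had 344.5, 323 and 335 CPM with PBS, and 327, 404 and 383 CPM with rhSema3C. rhSema3C replicate 1 lay inside the PBS range and the other two above it. This gave a log2 change of 0.15 (SE 0.07, 95% interval 0.00 to 0.30) and an adjusted p of 0.070. Without rhSema3C replicate 1 it was 0.23 (adjusted p = 0.0017), and with library-size scaling it was 0.26 (adjusted p = 0.0069). A rise of IL6ST beyond 1.23-fold lay outside the interval on TMM-scaled counts. With TPM the log2 change was 0.37 (limma, adjusted p = 0.0027), above the upper end of that interval. The pseudogene IL6STP1 had at most 3 counts in any sample.

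LIFR (ENSG00000113594, chromosome 5, 38474668 to 38595404, minus strand) pairs with gp130 in the receptors of LIF, CTF1 and CLCF1. Its level was 29.3, 28.9 and 31.2 CPM with PBS and 35.0, 43.9 and 41.1 CPM with rhSema3C. All rhSema3C samples were above all PBS samples, with a wider spread among the treated ones. LIFR rose by a log2 change of 0.43 (SE 0.08, 95% interval 0.24 to 0.61, adjusted p = 0.0010). LIFR-AS1 on the other strand shares 629 of its exonic bases and had 12 to 110 counts, beside at least 2020 for LIFR.

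OSMR (ENSG00000145623, chromosome 5, 38845858 to 38945596, plus strand) pairs with gp130 to bind oncostatin M. It had 290.5, 299 and 307 CPM with PBS and 367, 362 and 380 CPM with rhSema3C. The groups were separate and both were tight. OSMR rose by 0.31 on the log2 scale (SE 0.04, 95% interval 0.22 to 0.40, adjusted p = 6e-05). At its end OSMR shares 229 exonic bases, 3.19% of its total, with RICTOR on the other strand. RICTOR had 3149 to 4222 counts with PBS and 6038 to 7551 with rhSema3C, against 20268 to 33304 for OSMR, and its part in the change of OSMR was not tested.

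IL6R (ENSG00000160712, chromosome 1, 154405193 to 154466877, plus strand) is the chain that binds IL6 and gives a cell direct access to it. Its counts were 240, 165 and 163 with PBS and 208, 146 and 180 with rhSema3C. In CPM these were 2.79, 2.36 and 2.47 against 2.40, 1.59 and 2.15, so the groups overlapped. IL6R had a mean of 0.343 FPKM and was tested only in a fit of all 33900 genes, where 24.8% of genes passed. There the fold was 0.798 with a 95% interval from 0.574 to 1.11 (adjusted p = 0.33), which covers both a fall and a rise of IL6R.

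SOCS3 (ENSG00000184557, chromosome 17, 78356778 to 78360077, minus strand) is the inhibitor that gp130 signalling induces through STAT3. Its PBS samples had 58.1, 68.5 and 58.1 CPM and its rhSema3C samples had 53.9, 50.1 and 53.9 CPM. All rhSema3C samples were below the PBS samples, and PBS replicate 2 stood above the rest. The change of SOCS3 was -0.23 on the log2 scale (SE 0.07, 95% interval -0.38 to -0.07, adjusted p = 0.015). Without PBS replicate 2 it was -0.14 (adjusted p = 0.059), with library-size scaling -0.12 (adjusted p = 0.15) and with TPM 0.00 (adjusted p = 0.96). In none of these settings did SOCS3 rise with IL6 at the adjusted p of 0.05. For IL6, IL11, CLCF1, LIF, LIFR, OSMR and SOCS3 the two-sided exact permutation test over the 6 samples gave p = 0.1, the smallest it can give for 3 against 3.

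**Figure D3:**
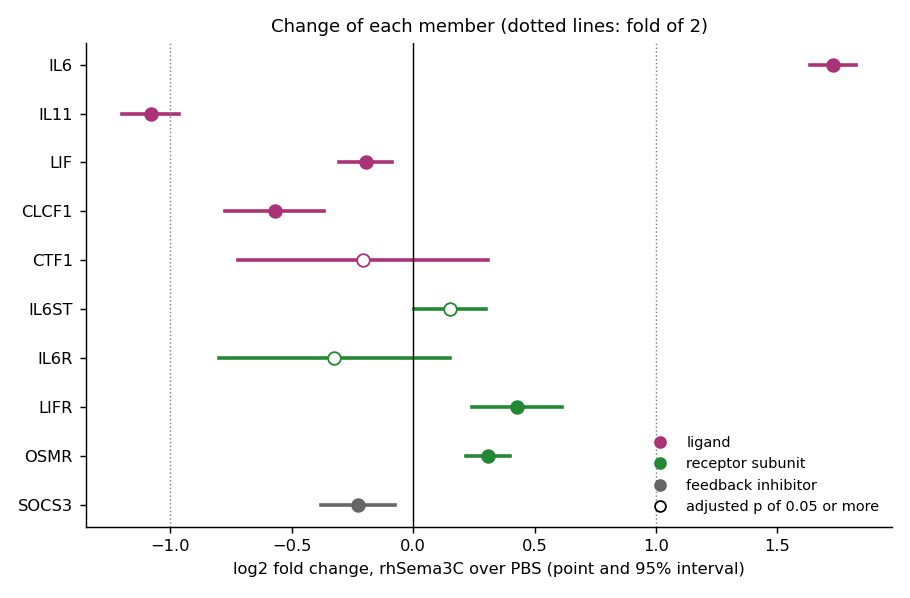
Log2 fold change of each member between rhSema3C and PBS, with its 95% interval from edgeR, coloured by role. Filled points passed an adjusted p of 0.05. IL6 stands at 1.73 and IL11 at -1.08, the other members lie between -0.57 and 0.43, and the intervals of CTF1 and IL6R include 0.

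Per length of transcript, the members spanned a wide range of levels. With PBS the order in FPKM was IL6 (40.2), OSMR (39.2), IL11 (35.9), LIF (33.8), IL6ST (31.1), SOCS3 (21.2), CLCF1 (8.51), LIFR (2.31), CTF1 (1.84) and IL6R (0.367). Only IL6 and OSMR overlapped among neighbours in that order. With rhSema3C the order became IL6 (143), OSMR (52.2), IL6ST (37.2), LIF (31.7), SOCS3 (19.5), IL11 (18.2), CLCF1 (6.15), LIFR (3.33), CTF1 (1.72) and IL6R (0.319). There the samples of IL6ST overlapped those of LIF, and those of SOCS3 overlapped those of IL11. IL11 thus stood ahead of LIF with PBS and behind it with rhSema3C. OSMR had the highest FPKM of the receptor subunits and IL6R the lowest in both groups.

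Ratios within a sample do not depend on the scaling between samples, so FPKM values were compared in 8 pairs, 7 of a ligand with a receptor subunit and 1 of OSMR with LIFR. The IL6 to IL6R ratio was 98.8, 118 and 114 in the PBS samples and 398, 576 and 414 in the rhSema3C samples. The IL6 to IL6ST ratio went from 1.29 ± 0.0480 to 3.89 ± 0.587 (SD, n = 3 per group). Both rose in every rhSema3C sample beyond every PBS sample. The IL11 to IL6ST ratio went the other way, from 1.15 ± 0.0684 to 0.496 ± 0.0784.

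The LIF to LIFR ratio was 15.1, 15.4 and 13.6 with PBS and 11.4, 8.08 and 9.52 with rhSema3C. The groups did not overlap, and scaling between samples cancels out of the ratio. LIF to IL6ST went from 1.09 ± 0.0493 to 0.863 ± 0.141, CLCF1 to IL6ST from 0.273 ± 0.00783 to 0.168 ± 0.0312, and CTF1 to LIFR from 0.797 ± 0.157 to 0.521 ± 0.135. For CTF1 to LIFR the groups nearly touched, with the lowest PBS sample at 0.6213 and the highest rhSema3C sample at 0.6209. The OSMR to LIFR ratio, 17.0 ± 0.483 and 15.8 ± 1.89, was the only one whose groups overlapped. Each of the other 7 gave p = 0.1 in the two-sided exact permutation test, the smallest possible, and 0.114 after adjustment over the 8 pairs.

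The 5 genes whose log2 CPM profile lay nearest to that of IL6 over the 6 samples were MTHFD2, INSIG1, ITPR1, ABCA1 and P2RX7. Nearness was the Euclidean distance between profiles centred on their means, from 0.10 for MTHFD2 to 0.20 for P2RX7. MTHFD2, a mitochondrial enzyme of one-carbon metabolism, went from 102.1 to 347.5 CPM, a log2 fold change of 1.77. INSIG1, which holds back cholesterol synthesis, also changed by 1.77. The calcium channel gene ITPR1, the cholesterol exporter ABCA1 and the ATP receptor P2RX7 had log2 fold changes of 1.82, 1.80 and 1.73. With 2 groups of 3 samples the likeness mostly states that these genes rose by about as much as IL6.

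Other genes of the pathway were described from lists of 55 genes, of which 54 were in the table and 44 were tested. Of these 44, 19 rose and 11 fell past the threshold, with a median log2 change of 0.13. The share that passed was 68.2%, beside 62.3% of all genes tested. With library-size scaling 25 rose and 9 fell, and with TPM 28 rose and 5 fell. Scaling matters for small changes. Library size alone in place of TMM moved the median of all genes from 0.02 to 0.13, and TPM moved it to 0.23.

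Among the other ligands and secreted partners, 1 of 2 tested genes was higher and none lower, beside 62.3% of all genes that passed. EBI3, a subunit shared by IL27 and IL35, went from 1.24 ± 0.208 to 2.46 ± 0.385 CPM (SD over 3 samples each, log2 fold change 0.99, adjusted p = 0.0022). CNTF, the ciliary neurotrophic factor, had a log2 fold change of -0.15 (adjusted p = 0.66) and changed sign with TPM. OSM, the ligand of OSMR, was at 0.0605 CPM with PBS and 0.0390 CPM with rhSema3C, and IL31 also lay below the level tested.

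All 3 tested genes among the other receptor subunits passed, 1 higher and 2 lower, beside 62.3% of all genes tested. CNTFR, a chain of the CLCF1 receptor, lay below the level tested. It had 0, 8 and 19 counts with PBS and 0, 6 and 0 with rhSema3C. IL11RA, the receptor of IL11, went from 7.40 ± 0.656 to 4.96 ± 0.972 CPM (log2 fold change -0.57, adjusted p = 0.0078), and did not pass with TPM (adjusted p = 0.075). IL27RA had a log2 fold change of -0.35 and also did not pass with TPM (adjusted p = 0.11). IL31RA, which pairs with OSMR to bind IL31, went from 13.0 ± 0.555 to 16.7 ± 0.501 CPM (log2 fold change 0.36, adjusted p = 0.0033). IL31RA rose with every scaling, but library-size scaling and TPM both move the median of all genes upwards.

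Of the 10 kinases, STATs and adaptors, 2 were higher and 3 lower, with a median of 0.00. With library-size scaling the split was 5 and 2, and with TPM 6 and 1. Of all genes that passed, 62.2% were higher with library-size scaling and 74.1% with TPM, beside 50.9% with TMM. JAK1 and JAK2, kinases that sit on gp130, had log2 fold changes of 0.34 (adjusted p = 2.5e-05) and 0.83 (adjusted p = 9.8e-05). STAT5B had -0.51 and the adaptor GRB2 -0.31, and GRB2 did not pass with TPM. TYK2 had -0.21 and changed sign with TPM. STAT3, the main transcription factor of the pathway, was at 151 ± 6.92 CPM with PBS and 144 ± 5.45 CPM with rhSema3C (log2 fold change -0.07, adjusted p = 0.22). Its sign changed with library-size scaling (0.04) and with TPM (0.16, adjusted p = 0.03).

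Of the 8 other inhibitors tested, 5 were higher and none lower, with a median of 0.27. The share that passed was 62.5%, beside 62.3% of all genes tested. PTPN2, a phosphatase that acts on JAK and STAT proteins, rose by 0.65 on the log2 scale (adjusted p = 1.8e-05). PIAS1, an inhibitor of STAT proteins, had 0.47 and SOCS6 0.53. SOCS1, the closest relative of SOCS3, was at 1.45 ± 0.437 and 1.63 ± 0.313 CPM and overlapped between the groups. PTPN6, below the level tested, went from 0.960 to 0.270 CPM and was lower in the fit of all genes (adjusted p = 0.0026). The 5 that rose also rose with library-size scaling and with TPM. Both scalings move the median of all genes upwards, so they could hardly undo a rise.

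In the receptor shedding list, 3 of 4 genes were higher and none lower. Over all genes tested, 62.3% passed in either direction and 31.7% passed as higher. Whether so short a list differs from that background was not tested. ADAM17, the protease that releases soluble IL6R from cells, went from 21.7 ± 1.99 to 46.1 ± 2.23 CPM. The log2 change of ADAM17 was 1.09 (SE 0.08, adjusted p = 5.3e-07), which passed the fold of 2. RHBDF2, a partner that carries ADAM17 to the cell surface, had 0.45, and ADAM10, a related protease, had 0.17. RHBDF1, the other such partner, had -0.05 (adjusted p = 0.46) and changed sign with library-size scaling and with TPM.

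The list of genes that STAT3 is known to induce was mixed, with 7 of 17 tested genes higher and 6 lower and a median of 0.04. The share that passed was 76.5%, beside 62.3% of all genes. The split was 9 higher and 5 lower with library-size scaling (median 0.14) and 9 higher and 4 lower with TPM (median 0.26). The largest rise was in VEGFA, the vascular growth factor, from 115.1 ± 6.21 to 308.0 ± 13.1 CPM (log2 fold change 1.42, adjusted p = 4.3e-09). BCL6, HIF1A and CEBPD had 0.74, 0.73 and 0.64. The largest fall was in CCND1, which encodes cyclin D1, from 1265 ± 24.2 to 421.0 ± 11.3 CPM (log2 fold change -1.59, adjusted p = 4.4e-10). FOS had -0.84, the survival gene BCL2L1 -0.49 and the metalloproteinase inhibitor TIMP1 -0.43. The acute-phase gene SAA1 was at 5.42 ± 1.06 and 5.13 ± 0.0976 CPM (adjusted p = 0.68), and its sign changed with scaling. VEGFA, HIF1A and CCND1 are also controlled by other pathways.

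**Figure D4:**
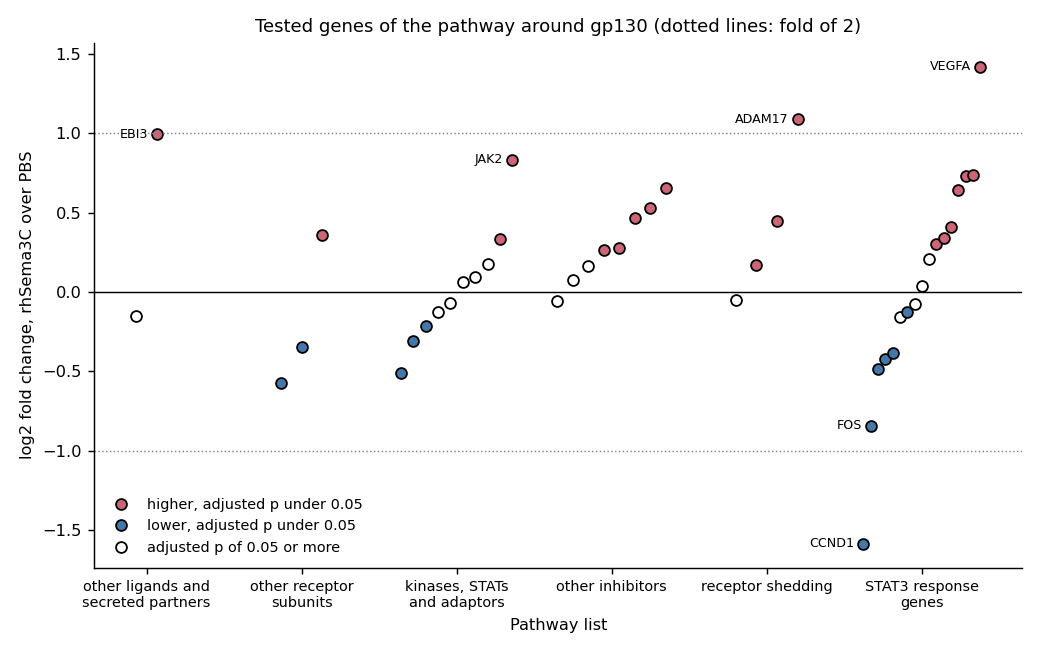
Log2 fold change between rhSema3C and PBS of the 44 tested genes in 6 lists around gp130 signalling, each point a gene. Filled points passed an adjusted p of 0.05. ADAM17 (1.09) and VEGFA (1.42) lie above the fold of 2 and CCND1 (-1.59) below it, and the STAT3 response genes spread to both sides of 0.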

How the data were processed

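Whole-number counts per gene and FPKM values were deposited by the authors for 6 RNA-seq samples. According to the paper's methods, libraries were sequenced on an Illumina NovaSeq instrument, and the authors ran the Cufflinks package and cuffmerge. The aligner, counting tool, strand setting and genome build are not given in the sources used here. Member coordinates lie on GRCh38, judged against GENCODE 29. Since strand use is unknown, reads of overlapping genes cannot be separated.

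The counts were scaled with TMM factors and compared with edgeR's quasi-likelihood test over genes whose mean FPKM reached 0.5. Standard errors were the log2 fold change divided by the square root of its F statistic. Depth was 68267808 to 89245585 counts per sample, and intervals do not cover amplification error. Replicates of a group differed by more than counting noise (chi-square per degree of freedom 12.6 to 20.4). The members and lists were chosen with earlier results of these data known, and so were the motifs. Named beside the members were overlapping genes, tested list genes that passed with a fold above 2, up to 4 genes of each list with the lowest adjusted p (whatever its size), and the 5 nearest profiles to IL6. STAT3, TYK2, BCL6, CEBPD, FOS, TIMP1, SAA1, SOCS1, PTPN6, OSM, IL31, CNTFR and IL6STP1 lie outside this rule and were named after their values were seen. The tests were tried on simulated data. Alternatives covered scaling, filter, pseudocount, tool, blocking by replicate number and leaving out single samples. TPM was added after seeing the data. The work used edgeR 4.0.16 (main test), DESeq2 1.42.0 and limma 3.58.1 (alternatives) under R 4.3.3, and scipy 1.17.1 for exact permutation tests.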

Additional observations from a re-analysis of the deposited data

How the results depend on the processing

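IL6 (1.69 to 1.95 on the log2 scale), IL11 (-1.11 to -0.84), CLCF1 (-0.63 to -0.33), LIFR (0.35 to 0.59) and OSMR (0.29 to 0.53) kept their direction and passed the adjusted p in every alternative that tested them. The smaller changes moved with how samples were scaled. With library size alone, a mean FPKM of at least 5, limma on log2(FPKM + 1), limma on log2(FPKM + 0.1) or limma on log2(TPM + 1), 2 members were lower in place of 4, since LIF and SOCS3 no longer passed, and 0 were lower with a fold above 2, since IL11 stood between -0.98 and -0.84. With TPM, LIF (0.0306), CTF1 (0.0151) and SOCS3 (0.0043) changed sign and did not pass. IL6ST passed in those 5 settings (0.24 to 0.37), in DESeq2 (0.14, adjusted p = 0.043) and without rhSema3C replicate 1. Over all genes, 4490 were higher and 4339 lower, 469 and 292 of them with a fold above 2. Without the filter 786 were higher with a fold above 2. With a mean FPKM of at least 5, which tests fewer genes, 2603 were higher and 2621 lower, 164 and 73 with that fold. With limma on log2(FPKM + 1) 172 were higher and 74 lower with that fold, and with log2(FPKM + 0.1) 179 were lower. With TPM 6934 were higher and 2428 lower, 92 of these with that fold. Higher genes made up 50.9% of those that passed with TMM, 62.2% with library size alone, 61.3% and 61.2% with both FPKM settings and 74.1% with TPM. The cause of these shifts was not tested. Leaving out 1 sample at a time gave 3 to 4 members higher and 3 to 4 lower. With the replicate number as a block, 3 members were higher and 4 lower, and 4221 genes were higher and 4120 lower. Same-numbered samples showed no shared deviation, with correlations of -0.004, 0.058 and -0.027. The labels do not say whether same-numbered samples were handled together, and these correlations cannot settle that. IL6R and CTF1 had at most 240 and 314 counts, and their rhSema3C samples had coefficients of variation of 20.3% and 24.8%. All 8 ratios kept their direction in the alternatives run, from counts in place of FPKM and without each sample.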
